A study of Drosophila melanogaster with 17 samples.

Results

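Cytochrome P450 enzymes are encoded by a large gene family in Drosophila melanogaster. The 80 genes described here are those of the 13872 in the deposited count table whose symbol is Cyp followed by a family number, a subfamily letter and a gene number. The count table covers dissected central nervous systems (CNS: optic lobes, central brain and nerve cord) of larvae late in the third instar, each library made from a pool of larvae. The study asked how the neuronal transcriptome of the fly changes when Smn, the homolog of the gene lost in Spinal Muscular Atrophy, is reduced.

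All animals carried the pan-neuronal driver elavGAL4 (P{GAL4-elav.L}3) in a w background, crossed to 1 of 3 strains. WT animals carried the insertion UAS-PWIZ15, which has no hairpin against Smn. C24 animals carried UAS-Smn RNAi-C24, an inducible hairpin against Smn that the driver turns on in post-mitotic neurons. X7/C24 animals were offspring of the strain Df(3L)SmnX7, UAS-Smn RNAi-C24/TM6B Dfd-YFP and combined the same hairpin with 1 copy of an Smn deletion. The hairpin is aimed at neurons alone, while glia and attached tissue such as the ring gland also give RNA to each library. Each genotype stands for 1 insertion strain, so that the hairpin and the genetic background of the strain carrying it cannot be told apart. WT_4 to 6 and C24_5 to 7 were sequenced in a second round, WT_1 to 3 and C24_1 to 4 in an earlier pilot, and X7/C24_1 to 4 alone in the last round, so that the X7/C24 genotype and its sequencing round cannot be told apart.

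P450 enzymes are membrane-bound haem monooxygenases. The microsomal ones take electrons from the reductase Cpr, and the mitochondrial ones from an adrenodoxin-like ferredoxin. Insects use them to make and clear ecdysteroid hormones, to produce cuticular hydrocarbons and to oxidise plant toxins and insecticides, and most detoxifying members are best known from midgut, Malpighian tubule and fat body. In insects the family falls into a CYP2 clan, a CYP3 clan that holds many detoxifying members, a CYP4 clan and a mitochondrial clan. The 80 genes comprised 4 of the CYP2 clan, 35 of the CYP3 clan, 32 of the CYP4 clan and 9 of the mitochondrial clan. The ecdysone-producing Halloween P450 genes (phm, dib, sad, shd, spo and spok) have names of another form and are treated below as a separate list.

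Of the 80 genes, 79 had an entry in the BDGP6 annotation, and the positions and exon lengths given below are of that build. Chromosome arm 2R held 32 of them, 3R 15, X 14, 2L 12 and 3L 6. A total of 39 genes lay in 14 chains of members whose starts were within 10 kb of the next, and 40 stood alone. The longest chain held 7 genes on arm 2R (Cyp6a8, Cyp6a9, Cyp6a17, Cyp6a19, Cyp6a20, Cyp6a22 and Cyp6a23). The reads were counted without regard to strand, and the exons of 12 members overlapped those of another annotated gene by at least 100 bases. For Cyp4d2, Cyp9c1, Cyp4d14 and Cyp4ae1 an antisense RNA covered 98.7%, 98.2%, 96.2% and 88.3% of the exon length, so that reads of gene and antisense partner cannot be told apart. Cyp6d2 shared 51.0% of its exon length with nsr, and Cyp303a1 33.0% with heix. Union counting drops reads from such an overlap if both genes are in the annotation used for counting. Which of these BDGP6 overlaps that annotation held was not checked. Cyp6a9 and Cyp6a19 shared 397 bases with each other, which union counting gives to neither if the counting annotation also held that overlap. Cyp12d1-d and Cyp12d1-p are near-identical copies whose reads are lost when only unique alignments are kept.

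Library totals ranged from 7883183 to 28339670 counts, and 3 counts, the limit that a count of 0 allows, corresponded to 0.11 to 0.469 CPM (read counts scaled to library size by the TMM method). Smn, the targeted gene, stood at 67.2, 67.8 and 64.1 CPM in WT_4 to 6, at 55.8, 66.2 and 55.4 CPM in C24_5 to 7 and at 30.1, 29.0 and 29.5 CPM in X7/C24_1 to 3. By edgeR's quasi-likelihood test Smn was lower in X7/C24 than in WT with a log2 difference of -1.15 (SE 0.0558, adjusted p = 1.05e-05, n = 3 per group), whereas C24 differed from WT by -0.16 (SE 0.0952, adjusted p = 0.741). The libraries C24_1 and WT_2, which the study set aside with WT_1, held 68.0 and 160 summed CPM of 12 neuron markers, and WT_1 held 498, against 4600 to 6670 in the 9 libraries of the comparisons below. For a lower GAL4 level the study proposed to leave out WT_3 and C24_3 as well, which held 3330 and 3490. X7/C24_4, which the study left out for its share of duplicate reads, held 3270, with Smn at 44.7 CPM, and entered no comparison except where named. The libraries are separate pools, and their p-values measure the spread between pools.

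The WT larval CNS expressed 44 members of the family, and their levels fell steeply after the first few. Taking a mean of at least 1 CPM as expressed, these were 55.0% of the 80 genes in WT_4 to 6, against 64.2% of all genes in the table. In C24_5 to 7 the number was 36 (45.0%, all genes 63.6%), and in X7/C24_1 to 3 it was 38 (47.5%, all genes 64.7%). A mean of at least 10 CPM was reached by 14 genes in WT, 13 in C24 and 12 in X7/C24. In WT the expressed genes included 23 of the CYP3 clan, 12 of the CYP4 clan, 6 of the mitochondrial clan and 3 of the CYP2 clan. Just below the threshold in WT were Cyp4d1 (0.989 CPM), Cyp12c1 (0.929 CPM) and Cyp6a21 (0.919 CPM), and just above it Cyp12a5 and Cyp4ac3 (both 1.20 CPM) and Cyp4e2 (1.26 CPM). In all 3 genotypes 33 genes were expressed, and 32 were expressed in none of them. No read of Cyp12d1-d, Cyp313a2 or Cyp6a19 was counted in WT_4 to 6, where 0 counts allow up to 0.113 to 0.163 CPM per library. For Cyp12d1-d and Cyp6a19 that limit covers only reads that unique alignment and union counting keep.

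Per length, Cyp4g15 was the most abundant P450 transcript of the WT CNS. It is a paralog of the oenocyte gene Cyp4g1, has been reported from the nervous system, and lies at X:11477058-11483233 on the plus strand. Its level was 54.6 ± 4.91 RPKM (CPM per kilobase of exon, mean ± SD, n = 3), from 142, 132 and 157 CPM in WT_4 to 6. Cyp12e1 (mitochondrial clan) followed at 34.0 ± 1.30 RPKM and Cyp9f2 (CYP3 clan) at 33.2 ± 4.96 RPKM, 2 levels whose difference was smaller than the spread of Cyp9f2 among the 3 libraries. Cyp4p2 came next, at 20.8 ± 2.22 RPKM. Behind it Cyp4d14 (13.9 ± 0.897 RPKM) and Cyp4d2 (13.6 ± 0.763 RPKM) were within their spread of each other, as were Cyp6u1 (12.3 ± 0.497 RPKM) and Cyp9c1 (12.1 ± 0.972 RPKM) after them. Cyp28d1 (10.8 ± 0.817 RPKM) and Cyp4ae1 (9.61 ± 0.357 RPKM) completed the upper 10, and 4 of these 10 are the genes under antisense RNAs named above.

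**Figure D1:**
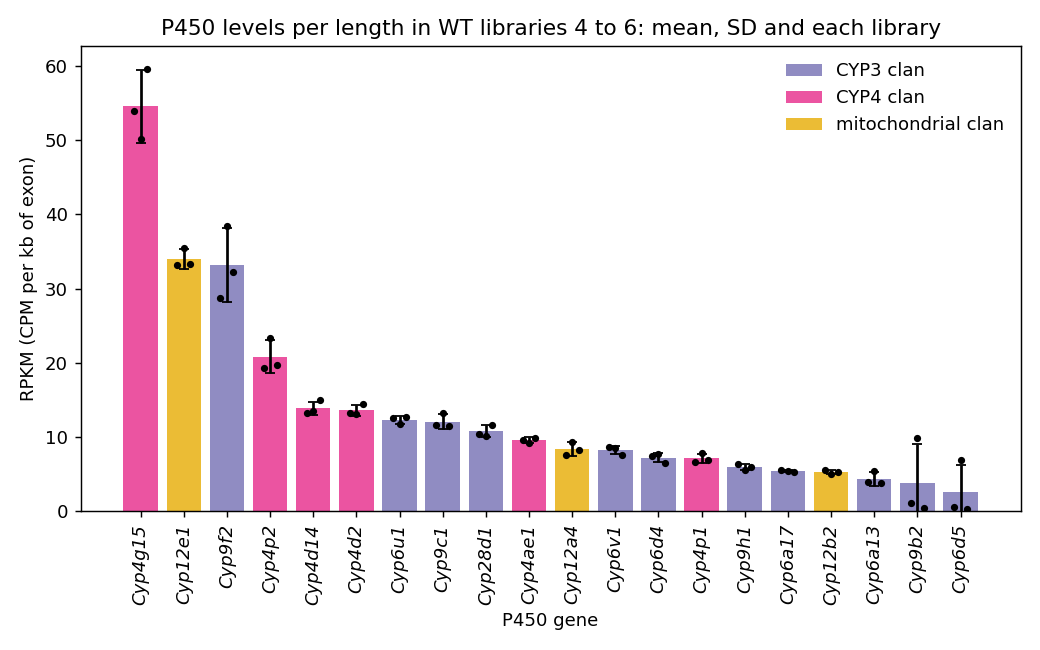
RPKM (vertical axis, linear from 0) of the 20 P450 genes with the highest mean in WT_4 to 6. Bars are means coloured by clan, error bars are SD (cut at 0) and points are the 3 libraries. Cyp4g15 at 54.6 RPKM stands above Cyp12e1 (34.0) and Cyp9f2 (33.2), and the wide bars of Cyp9b2 and Cyp6d5 come from WT_5 alone.

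The members with known roles were spread over a wide range of levels. Cyp4g1, the oenocyte decarbonylase that completes cuticular hydrocarbons, was at 1.42 ± 0.159 CPM in WT, and Cyp6g1, known for DDT resistance, at 1.38 ± 0.895 CPM. Cyp18a1, which hydroxylates and so inactivates ecdysteroids, was at 0.227, 0.0542 and 0.156 CPM and was not counted as expressed in WT. Cyp6a17, required in the mushroom body for normal temperature preference, was at 9.41 ± 0.281 CPM, and its neighbour Cyp6a20, known for its part in male aggression, at 2.10 ± 0.394 CPM. Other members known from insecticide resistance, Cyp6a2, Cyp6a8 and Cyp12d1-p, were below 1 CPM in each of the 9 libraries of the second and last rounds. For Cyp12d1-p this holds only for reads that unique alignment keeps. Cyp6a2 and Cyp12d1-p, like Cyp4d1, Cyp12c1, Cyp6a21, Cyp12a5, Cyp12d1-d and Cyp313a2 above, fall outside the rule for named genes and were picked after their values were seen.

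The summed level of the 80 genes was 577, 646 and 600 CPM in WT_4 to 6, 470, 529 and 558 CPM in C24_5 to 7, and 448, 505 and 460 CPM in X7/C24_1 to 3. Each of these WT libraries lay above each of the others. The 3 Cyp4p genes made up 7.97% to 8.70% of the sum in WT_3 to WT_6 and at most 0.408% in any C24 or X7/C24 library. Without them the sums were 531 to 590 CPM in WT, 469 to 556 CPM in C24 and 447 to 504 CPM in X7/C24, so that WT and C24 then overlapped. Cyp4g15 was the leading gene of the sum in 16 of the 17 libraries, with 9.59% to 26.3% of it, and Cyp9f2 led in C24_1 with 21.9%.

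**Figure D2:**
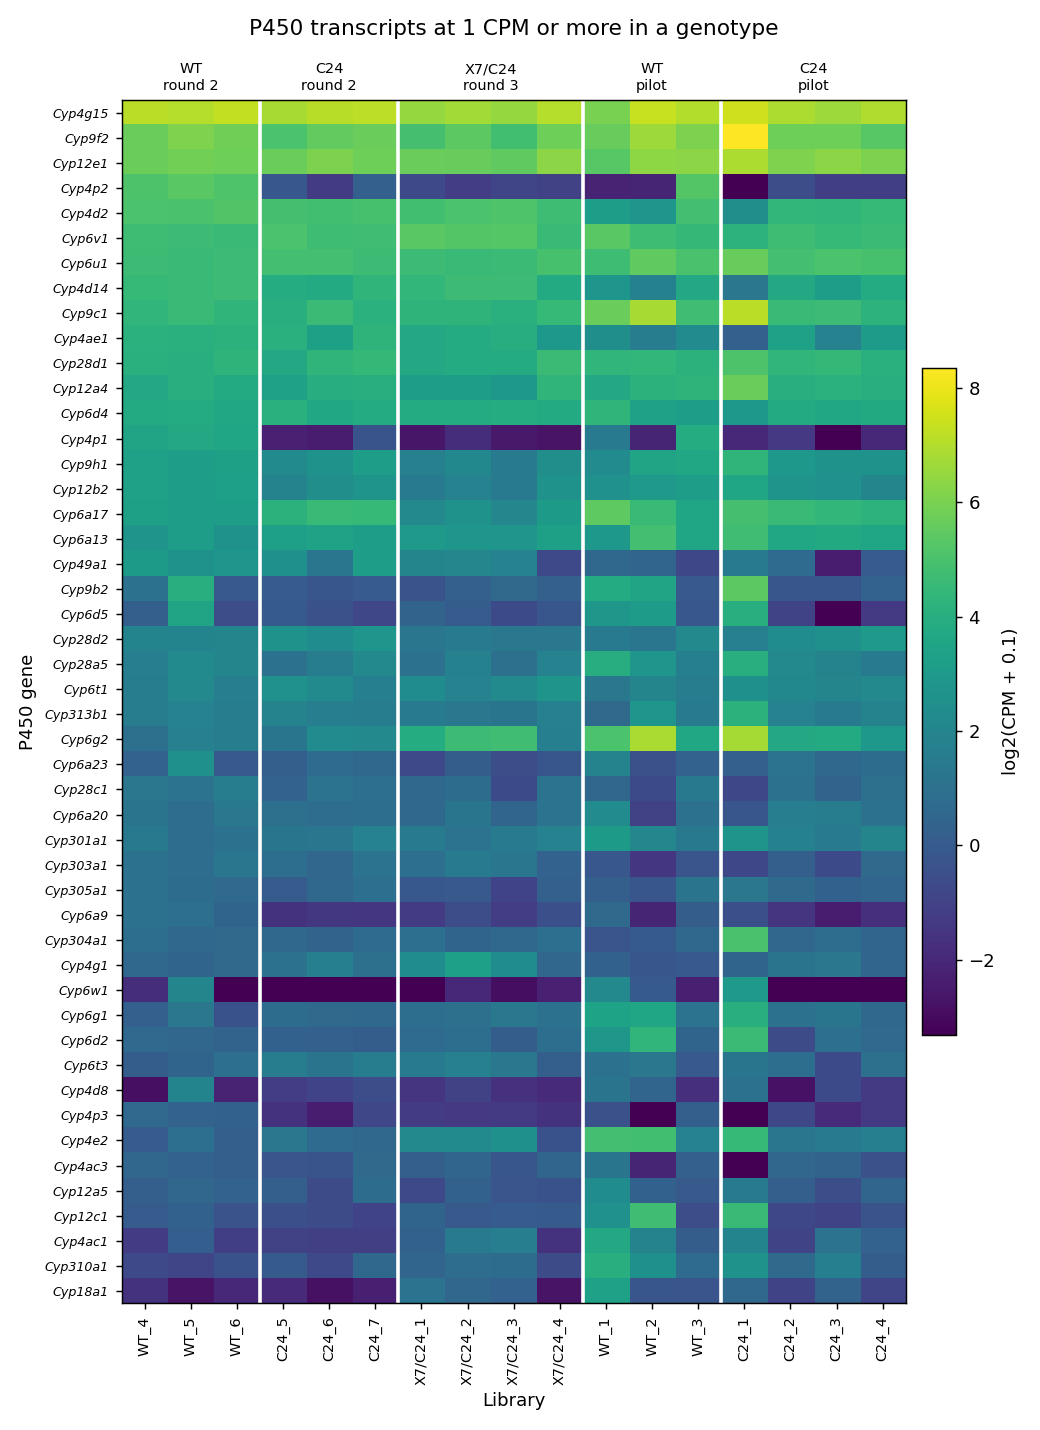
Level of the 48 P450 genes that reached a mean of 1 CPM in at least 1 genotype, ordered by mean level in WT_4 to 6, in all 17 libraries grouped by genotype and round. Colour is log2(CPM + 0.1). Cyp4p2 and Cyp4p1 are bright in WT_3 to WT_6 and dark in every C24 and X7/C24 library, while most of the upper genes keep one colour across the second and last rounds.

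The 8 genes expressed in WT and not in C24 differed in their pattern over the WT libraries. Cyp4p1, Cyp4p2, Cyp4p3 and Cyp6a9 were at 1 CPM or more in each of WT_4, WT_5 and WT_6, and are described below. Cyp6d5, Cyp6w1 and Cyp4d8 passed the threshold in the mean through WT_5, while Cyp9b2 was highest in WT_5 and passed without it (these 4 were named after their values were seen). Cyp9b2 stood at 1.93, 16.5 and 0.859 CPM in WT_4, WT_5 and WT_6, Cyp6d5 at 1.06, 11.3 and 0.586 CPM, and Cyp6w1 at 0.189, 4.06 and 0 CPM. Cyp4d8 stood at 0.0378, 3.69 and 0.117 CPM and Cyp6a23 at 1.17, 5.75 and 0.859 CPM, again with WT_5 alone high. WT_5 also held 86.6 summed CPM of 15 midgut genes, against 31.1 in WT_4 and 3.40 in WT_6. The WT_5 sum came mostly from Jon99Ciii (41.5 CPM), Jon66Ci (20.4 CPM) and Amy-d (13.6 CPM). Other genes of the list were higher in WT_4, such as Jon65Aiii and Jon65Aiv (11.2 and 13.0 CPM, against 2.93 and 2.87 CPM in WT_5). C24_1, at 8140 summed CPM of the midgut genes, held 43.0 CPM of Cyp9b2, 16.3 CPM of Cyp6d5 and 7.97 CPM of Cyp6w1. Its midgut sum came from other genes, with Jon99Ciii, Jon66Ci and Amy-d at 2.97, 0.313 and 0 CPM. The part of midgut RNA in these P450 values was not tested. Without WT_5 the number of genes expressed in WT was 40.

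The comparison of C24 with WT in the second round asked which transcripts differ when the Smn hairpin is expressed in neurons. The strongest differences of the family were in the Cyp4p cluster, whose transcripts were abundant in WT and nearly gone in C24. Cyp6a9 was also lower, and Cyp6a17, in the same chain as Cyp6a9, was higher. Of the 80 genes 46 passed the filter on low counts, and 4 of them (1 higher, 3 lower) had an adjusted p under 0.05, beside 0.394% of all 9394 genes tested (0.16% higher, 0.234% lower). The median log2 fold change was -0.17 over the 46 members and 0.00 over all genes, and the median absolute log2 fold change was 0.38 over the members and 0.11 over all genes. With at least 10 counts required in every library, the absolute medians were 0.29 over 38 members and 0.10 over 8985 genes. Members and other genes were not matched by level, and the part of low counts in this difference was not tested.

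Cyp4p2, Cyp4p1 and Cyp4p3 are consecutive genes on the plus strand of arm 2R (2R:9237512-9239831, 2R:9240041-9242139 and 2R:9242320-9244410) and lie within an intron of hig, a gene for a secreted protein of cholinergic synapses. No substrate is stated here for any of them. Cyp4p2 was at 34.2, 41.4 and 35.0 CPM in WT_4 to 6 (904, 764 and 897 counts), at 0.788, 0.318 and 1.09 CPM in C24_5 to 7 (14, 7 and 21 counts), and at 0.503, 0.334 and 0.441 CPM in X7/C24_1 to 3 (8, 7 and 12 counts). Each of WT_4 to 6 was thus far above every library of the other genotypes. The ratio of the WT mean to the C24 mean was 50.5, and edgeR put the log2 fold change at -5.67 (SE 0.279, adjusted p = 0.000468, n = 3 per group). In this bulk tissue, fewer cells expressing the gene and less RNA per cell cannot be told apart.

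Cyp4p1 was at 11.2, 13.1 and 11.6 CPM in WT (296, 242 and 297 counts) and at 0.113, 0.0909 and 0.724 CPM in C24 (2, 2 and 14 counts), with C24_7 above the other C24 libraries and still far below WT. Its log2 fold change was -5.26 (SE 0.490, edgeR adjusted p = 0.0110), a ratio of 38.8 between the means. Without C24_5, WT_4, WT_5 or WT_6 in turn the edgeR adjusted p of Cyp4p1 lay between 0.0515 and 0.0873, whereas that of Cyp4p2 stayed at 0.0123 or less without any 1 of the 6 libraries. Cyp4p3, at 1.51, 1.19 and 1.13 CPM in WT and 0.225, 0.0909 and 0.466 CPM in C24, did not overlap between the genotypes but missed the threshold, at a log2 fold change (edgeR) of -2.30 (SE 0.449, adjusted p = 0.145). It was tested at all only because of its level in WT.

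The host gene hig differed far less. It stood at 173, 174 and 189 CPM in WT_4 to 6, at 162, 149 and 171 CPM in C24_5 to 7 and at 142, 149 and 144 CPM in X7/C24_1 to 3. The log2 fold changes were -0.15 for C24 against WT (SE 0.0758, edgeR adjusted p = 0.727) and -0.29 for X7/C24 against WT (SE 0.0504, edgeR adjusted p = 0.00292). The libraries of hig did not overlap between WT and the other genotypes, but lay close to each other.

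The pilot libraries held both extremes of these genes. In WT_3 Cyp4p1 was at 14.9 CPM and Cyp4p2 at 36.9 CPM, whereas C24_2 to 4 held at most 0.288 and 0.575 CPM. WT_1 and WT_2 went the other way, with Cyp4p2 at 0.115 and 0.128 CPM and Cyp4p1 at 2.77 and 0.128 CPM. These lay within the C24 range except Cyp4p1 in WT_1, which was above every C24 library (at most 0.724 CPM) and below WT_3. These 2 libraries also held 34.2 and 34.0 CPM of hig, against 143 CPM in WT_3, and few neuron transcripts. Relative to WT_3, Cyp4p2 was lower by a far larger factor than hig in both libraries, and Cyp4p1 in WT_2 only. The part of the lower neuron RNA in the Cyp4p values of WT_1 and WT_2 was not tested. Over the 3 WT and 4 C24 pilot libraries edgeR called 0 of 51 members and 0% of all 9586 genes, with 0 members and 67 genes at an unadjusted p under 0.05, and DESeq2 called 0 members, with 2 at an unadjusted p under 0.05. Without WT_1, WT_2 and C24_1 the pilot test called 1 member, Cyp4p2, lower in C24, and 2 of 9700 genes. That fit leaves WT_3 alone against 3 C24 libraries, and WT_3 is assumed to vary like them. It also keeps WT_3 and C24_3, which the study proposed to leave out for their lower GAL4 level. The difference between the rounds in the C24 effect passed the threshold for none of 57 members tested by an interaction term in edgeR, with 1 at an unadjusted p under 0.05 (Cyp6a17). That fit included WT_1, WT_2 and C24_1, and even a log2 difference of -7.80 (Cyp6w1) had an edgeR unadjusted p of 0.121. It therefore cannot show that the rounds were alike.

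Cyp6a17 and Cyp6a9 lie in the chain of 7 Cyp6a genes on arm 2R, at 2R:14873953-14875739 on the plus strand and 2R:14879356-14881372 on the minus strand. Cyp6a17 was at 9.72, 9.32 and 9.18 CPM in WT, 17.9, 23.7 and 22.4 CPM in C24 and 4.34, 6.00 and 4.12 CPM in X7/C24_1 to 3. The 3 genotypes did not overlap, and X7/C24_4 at 8.23 CPM lay between WT and the other X7/C24 libraries. C24 was 2.27-fold above WT (log2 fold change 1.19, SE 0.135, edgeR adjusted p = 0.0241). In the pilot, however, C24_1 to 4 held 29.5, 23.0, 20.9 and 18.7 CPM and WT_1 to 3 from 11.6 to 43.6 CPM, so that the genotypes overlapped there. The overlap comes from WT_1 and WT_2, and WT_3 (11.6 CPM) lay below every C24 library of the pilot. Cyp6a9 was at 1.93, 1.84 and 1.25 CPM in WT (51, 34 and 32 counts) and 0.225, 0.273 and 0.259 CPM in C24 (4, 6 and 5 counts). That was a ratio of 6.63 with no overlap (log2 fold change -2.68, SE 0.313, edgeR adjusted p = 0.0241), for a gene that passed the low-count filter only through WT. Without C24_7, WT_4, WT_5 or WT_6 in turn the edgeR adjusted p of Cyp6a17 lay between 0.0949 and 0.178, and without any 1 of the 6 libraries that of Cyp6a9 lay between 0.0510 and 0.178, in each case with the direction kept. With the kit set as a term the edgeR adjusted p was 0.102 for Cyp6a17 and 0.0943 for Cyp6a9, so that neither was called.

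The other 5 genes of that chain did not pass the threshold in C24 or were below the low-count filter. Cyp6a20 stood at 2.10 CPM in WT, 1.78 in C24 and 1.67 in X7/C24 (means), with overlapping libraries. Cyp6a23 stood at 2.59 CPM in WT, with WT_5 alone high, 1.35 in C24 and 0.697 in X7/C24 (means). Cyp6a8, Cyp6a19 and Cyp6a22 had means under 0.2 CPM in all 3 genotypes. Neighbouring position therefore went with opposite differences for Cyp6a17 and Cyp6a9 and with values that overlapped between WT and C24 for Cyp6a20 and Cyp6a23.

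**Figure D3:**
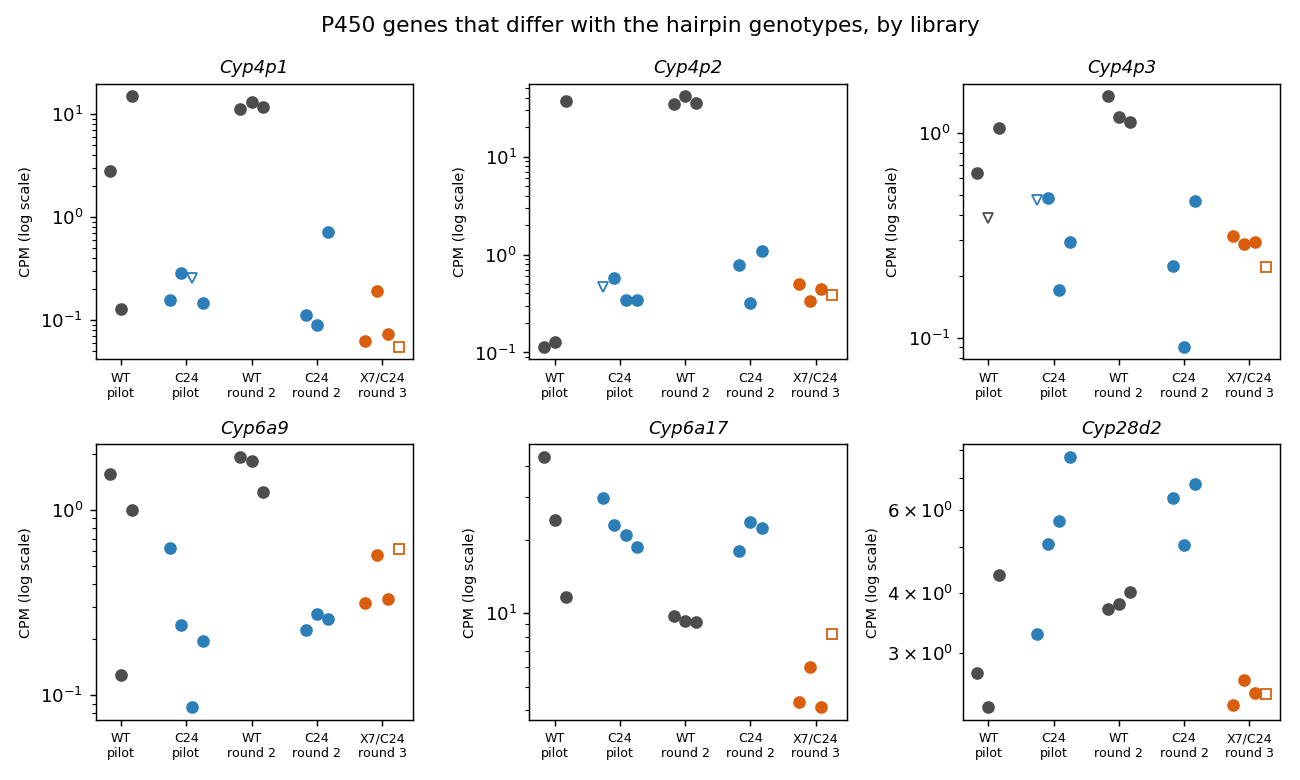
CPM (log axis) of Cyp4p1, Cyp4p2, Cyp4p3, Cyp6a9, Cyp6a17 and Cyp28d2 in each library, by genotype and round. Filled circles are libraries, open squares X7/C24_4, and open triangles libraries with 0 counts, drawn at their 3-count limit. Cyp4p2 lies at 34.2 to 41.4 CPM in WT_3 to WT_6 and at 1.09 CPM or less in every C24 and X7/C24 library, while Cyp6a17 is higher than WT in C24 and lower in X7/C24 in the second and last rounds.

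No other member tested in C24 passed the threshold. Cyp9b2 (-2.83, SE 1.10, edgeR adjusted p = 0.634) and Cyp6d5 (-2.65, SE 1.15, edgeR adjusted p = 0.687) had large log2 fold changes with WT_5 alone high. Cyp12b2, of the mitochondrial clan, was at 10.0, 9.00 and 9.45 CPM in WT and 3.66, 5.32 and 6.41 CPM in C24, with no overlap but an edgeR adjusted p of 0.253 (log2 fold change -0.87, SE 0.208). Cyp28d2 went the other way without overlap, from 3.71, 3.79 and 4.02 CPM to 6.36, 5.05 and 6.78 CPM (log2 fold change 0.66, SE 0.163, edgeR adjusted p = 0.273). Cyp4g15, at 112, 138 and 147 CPM in C24, overlapped WT (log2 fold change -0.11, SE 0.119, edgeR adjusted p = 0.802). At an unadjusted p under 0.05 stood 14 of the 46 members, beside 687 of the 9394 genes.

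X7/C24_1 to 3 were compared with WT_4 to 6 for the stronger reduction of Smn, and these comparisons share their WT libraries with the one above. The Cyp4p genes and Cyp6a9 were again low. Several members absent or scarce in WT were higher in X7/C24, first among them Cyp18a1 and Cyp6g2. Cyp4g15 and Cyp9f2, 2 of the 3 most abundant members per length, were lower, and the other, Cyp12e1, did not pass the threshold (log2 fold change -0.17, SE 0.0665, edgeR adjusted p = 0.0755). Of 50 members tested 24 passed the threshold (8 higher, 16 lower), beside 42.3% of all 9657 genes (21.2% in each direction). The share of members called was thus near the share of all genes, and the lower calls were the more frequent among the members. The lower calls included the neighbouring Cyp4p genes, of which Cyp4p1 and Cyp4p3 passed the low-count filter only through WT. Cyp18a1, called higher, passed it only through X7/C24. Genes that pass in this way can be called in 1 direction only. The median log2 fold change was -0.28 over the members and 0.00 over all genes, and the median absolute value 0.65 against 0.20. With at least 10 counts in every library the absolute medians were 0.46 over 38 members and 0.19 over 8997 genes. Here too the genes were not matched by level. By clan, 4 genes rose and 7 fell of 24 tested in the CYP3 clan, 3 rose and 5 fell of 15 in the CYP4 clan, and 0 rose and 3 fell of 7 in the mitochondrial clan. The 3 mitochondrial genes were Cyp12b2, Cyp12a4 and Cyp49a1. With X7/C24_4 included in the test the count of members called was 7, all lower (Cyp4p1, Cyp4p2, Cyp4p3, Cyp6a9, Cyp12b2, Cyp9h1 and Cyp28d2), beside 761 of 9625 genes.

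Cyp4p1 in X7/C24_1 to 3 was at 0.0629, 0.191 and 0.0735 CPM (1, 4 and 2 counts) and in X7/C24_4 at 0.0556 CPM, a ratio of 110 between the WT mean and the mean of the first 3 (log2 fold change -6.69, SE 0.262, edgeR adjusted p = 3.24e-06). Cyp4p2 had a ratio of 86.6 (log2 fold change -6.42, SE 0.167, edgeR adjusted p = 7.11e-07) and was at 0.389 CPM in X7/C24_4. Cyp4p3 was at 0.315, 0.286 and 0.294 CPM, with 0.222 CPM in X7/C24_4 (log2 fold change -2.08, SE 0.277, edgeR adjusted p = 0.000852). All 4 X7/C24 libraries thus stood below every WT library of the second round for each of the 3 genes. Cyp4p1 and Cyp4p3 passed the low-count filter only through WT.

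Cyp6a9 was at 0.315, 0.572 and 0.331 CPM in X7/C24_1 to 3 and 0.612 CPM in X7/C24_4, all below the WT libraries (log2 fold change -2.01, SE 0.329, edgeR adjusted p = 0.00209). Cyp12b2, at 2R:18754995-18757083, was at 2.77, 3.53 and 2.61 CPM, with 6.17 CPM in X7/C24_4, a ratio of 3.20 between the WT and X7/C24 means (log2 fold change -1.66, SE 0.146, edgeR adjusted p = 0.000139). Cyp6a17 fell to a mean of 4.82 CPM, a ratio of 1.95 (log2 fold change -0.95, SE 0.157, edgeR adjusted p = 0.00222). Cyp28d2 fell to 2.33, 2.62 and 2.46 CPM, with 2.45 CPM in X7/C24_4 (log2 fold change -0.62, SE 0.152, edgeR adjusted p = 0.0121). For these 4 genes X7/C24_4 lay below the WT libraries with the other 3.

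Among the most abundant members, Cyp4g15 was at 90.5, 107 and 90.5 CPM in X7/C24_1 to 3, below the 132 to 157 CPM of WT (log2 fold change -0.57, SE 0.0834, edgeR adjusted p = 0.00132). X7/C24_4, at 131 CPM, lay just below the WT range. Cyp9f2 was at 29.6, 42.6 and 27.9 CPM, against 50.5 to 67.7 CPM in WT (log2 fold change -0.79, SE 0.173, edgeR adjusted p = 0.00745), with X7/C24_4 inside the WT range at 54.6 CPM. Cyp28d1 and Cyp4ae1 fell by less, at -0.29 (SE 0.0797, edgeR adjusted p = 0.0192) and -0.27 (SE 0.0705, edgeR adjusted p = 0.0147) on the log2 scale. Cyp28d1 lost its call without WT_6 or X7/C24_1, and Cyp4ae1 without WT_4 or WT_6. Cyp12e1, Cyp6u1 and Cyp4d2 did not pass the threshold in either comparison with WT. Over the 13 glial genes fixed as markers, 1 was higher and 4 were lower in X7/C24 than in WT, and 3 of 12 neuron markers were higher. Of all genes tested 21.2% were called higher and 21.2% lower, so that the lower glial and the higher neuron counts were near these shares. The glial sums were 2230 to 2270 CPM in WT and 1880 to 2020 CPM in X7/C24_1 to 3, and their part in these P450 values was not tested.

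Of the lower genes outside the rule for named genes, chosen after their values were seen, Cyp9h1 fell from 10.3, 8.94 and 9.69 CPM to 3.27, 4.24 and 2.72 CPM (log2 fold change -1.49, SE 0.170, edgeR adjusted p = 0.000431). Cyp305a1 (-1.34), Cyp28c1 (-1.12), Cyp49a1 (-0.85) and Cyp12a4 (-0.72), the last known from resistance to lufenuron, fell on the log2 scale with edgeR adjusted p-values of 0.0104, 0.0389, 0.00303 and 0.00275. Their X7/C24_1 to 3 libraries did not overlap WT. Cyp28c1 lost its call under 8 of 15 alternatives (edgeR adjusted p from 0.0511 to 0.246 there), among them leaving out WT_4, WT_6, X7/C24_1 or X7/C24_3. In X7/C24_4, however, Cyp12a4 was at 19.9 CPM and Cyp28d1 at 24.6 CPM, above all 3 WT libraries.

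The higher members included several with known roles in endocrine tissue. Cyp6g2, a gene expressed in the corpus allatum (the juvenile hormone part of the ring gland) at 2R:12188338-12190377, was at 1.89, 3.31 and 2.85 CPM in WT, 2.25, 4.86 and 4.35 CPM in C24 and 15.0, 25.9 and 27.5 CPM in X7/C24_1 to 3. X7/C24_1 to 3 did not overlap either genotype, and X7/C24_4 stood with WT at 3.17 CPM. The fold change against WT was 8.50 (log2 3.14, SE 0.270, edgeR adjusted p = 0.000129). Cyp18a1 (X:18688538-18693042) was at 2.08, 1.33 and 1.18 CPM in X7/C24_1 to 3 and 0.0556 CPM in X7/C24_4 (log2 fold change against WT 3.25, SE 0.426, edgeR adjusted p = 0.000804), and passed the low-count filter only through X7/C24. Cyp6t3, needed in the prothoracic gland for ecdysone production and outside the rule for named genes, was at 0.983, 1.25 and 1.80 CPM in WT and 2.71, 3.24 and 2.43 CPM in X7/C24_1 to 3 (log2 fold change 1.07, SE 0.252, edgeR adjusted p = 0.0103). It was at 2.93, 2.18 and 3.00 CPM in C24, which overlapped X7/C24, and at 1.06 CPM in X7/C24_4.

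Cyp4g1 (X:467057-469335) was at 1.44, 1.25 and 1.56 CPM in WT, 1.97, 3.14 and 1.91 CPM in C24 and 5.03, 9.39 and 4.96 CPM in X7/C24_1 to 3 (log2 fold change against WT 2.20, SE 0.292, edgeR adjusted p = 0.000852). Cyp4e2 (2R:8444560-8447164) was at 0.946, 1.79 and 1.05 CPM in WT and 4.47, 4.48 and 5.77 CPM in X7/C24_1 to 3 (log2 fold change 2.01, SE 0.260, edgeR adjusted p = 0.000747). Neither gene was high in X7/C24_4, with 1.33 and 0.667 CPM. Cyp4ac1 (2L:5264001-5265899, within tkv) was at 0.303, 1.03 and 0.352 CPM in WT and 1.13, 2.67 and 3.09 CPM in X7/C24_1 to 3 (log2 fold change 2.16, SE 0.508, edgeR adjusted p = 0.0101), while its neighbours Cyp4ac2 and Cyp4ac3 overlapped between the genotypes. Cyp6v1 was at 26.3, 25.8 and 23.0 CPM in WT and 41.5, 37.1 and 38.7 CPM in X7/C24_1 to 3, a smaller difference at a higher level (log2 fold change 0.66, SE 0.0769, edgeR adjusted p = 0.000464). Cyp310a1, outside the rule for named genes, was at 0.492, 0.434 and 0.664 CPM in WT and 1.32, 1.72 and 1.65 CPM in X7/C24_1 to 3 (log2 fold change 1.56, SE 0.253, edgeR adjusted p = 0.00200). X7/C24_4 lay within or below the WT range for all 8 higher members.

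Transcripts of the ring gland moved with these genes. All 10 members of a ring gland list were higher in X7/C24_1 to 3 than in WT by edgeR, with a median log2 fold change of 3.26, and the summed level was 410 to 489 CPM in WT_4 to 6, 481 to 546 CPM in C24_5 to 7, 1240, 1660 and 1540 CPM in X7/C24_1 to 3 and 424 CPM in X7/C24_4. The Halloween genes, of which phm, dib, sad and spok are also on that list, were higher for 4 of 5 tested, and their sum was 46.1 to 92.8 CPM in WT and 620 to 950 CPM in X7/C24_1 to 3. Of these P450 genes, spok and phm differed by 3.51 on the log2 scale (SE 0.283, edgeR adjusted p = 0.000106) and 3.42 (SE 0.271, edgeR adjusted p = 9.85e-05), and shd, which makes the active hormone in peripheral tissue, had -0.12 (SE 0.416, edgeR adjusted p = 0.839). Across all 17 libraries, the 9 with the highest ring gland sums (1200 CPM or more, the next being 750) held Cyp6g2 at 12.5 CPM or more and the other 8 at 7.36 CPM or less. For Cyp18a1, Cyp4e2, Cyp4ac1, Cyp4g1, Cyp310a1, Cyp6t3 and Cyp6v1 these sets of libraries overlapped. Markers of trachea and epidermis were higher for 6 of 8 tested (sums 136 to 145 CPM in WT, 255 to 290 CPM in X7/C24_1 to 3, 190 CPM in X7/C24_4). Hemocyte markers were higher for 4 of 6 and muscle markers for 5 of 12, beside 21.2% of all genes tested. The remaining lists did not rise as sets. Fat body markers were higher for 0 of 7, midgut markers for 0 of 3 (1 lower) and salivary gland markers for 0 of 7 (1 lower). Of 6 Malpighian tubule markers 2 were higher and 2 lower. The part of these tissues in the higher P450 values was not tested.

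**Figure D4:**
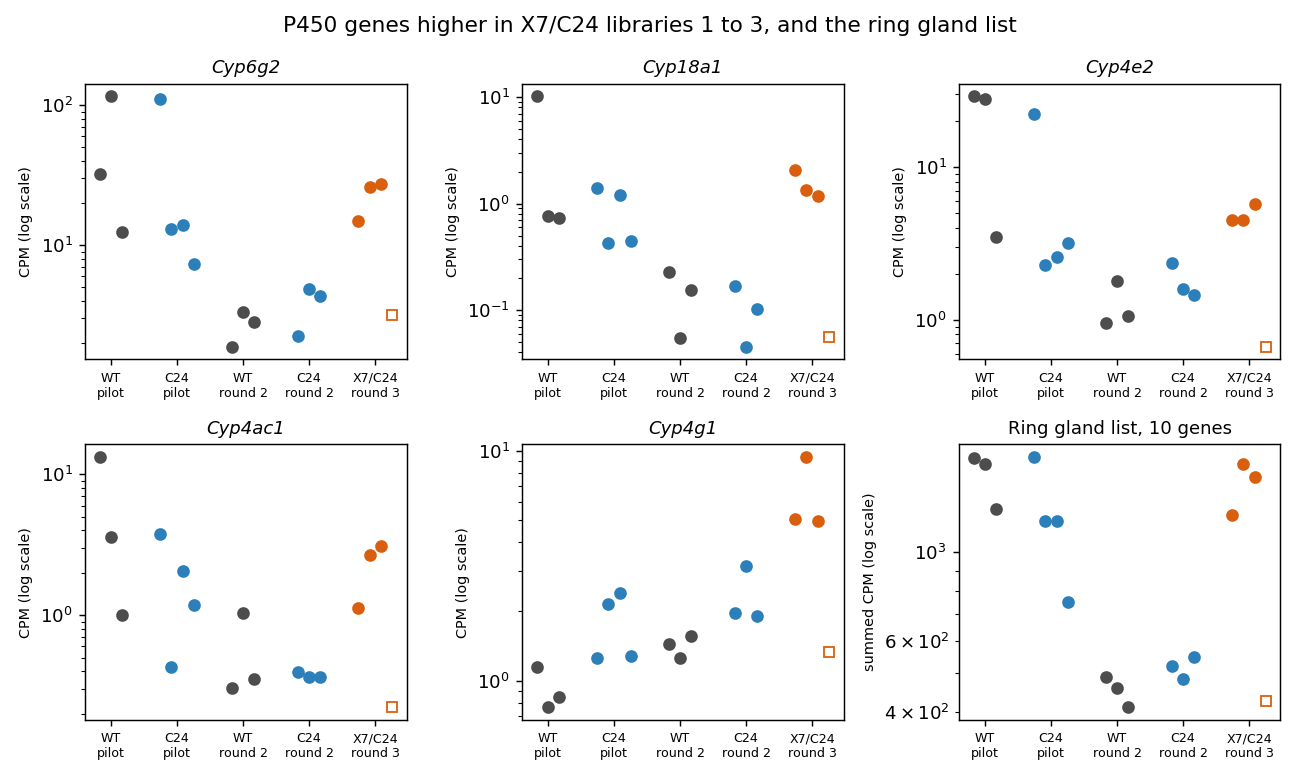
CPM (log axis) of Cyp6g2, Cyp18a1, Cyp4e2, Cyp4ac1 and Cyp4g1, and the summed CPM of the 10 ring gland genes, in each library by genotype and round. Filled circles are libraries and open squares X7/C24_4. X7/C24_1 to 3 lie above every second-round library in all 6 panels (Cyp6g2 at 15.0 to 27.5 CPM), X7/C24_4 lies with WT or below it, and several pilot libraries reach as high or higher in all panels but that of Cyp4g1.

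X7/C24_1 to 3 were also set against C24_5 to 7, which carry the same hairpin. Cyp6a17, Cyp28d2 and Cyp4g15 were lower in X7/C24, and Cyp18a1, Cyp4ac1, Cyp6g2, Cyp4e2, Cyp4g1, Cyp4d14 and Cyp6v1 were higher. Cyp6t3 (log2 fold change 0.06, edgeR adjusted p = 0.877) and Cyp310a1 (0.78, edgeR adjusted p = 0.180), both higher than in WT, did not pass the threshold against C24. Of 44 members tested 10 passed the threshold, 7 higher and 3 lower, beside 13.5% of all 9454 genes (7.59% higher, 5.94% lower). With libraries scaled by their total counts in place of TMM the split was 5 higher and 5 lower. The median log2 fold change was -0.06 over the members and 0.01 over all genes. Cyp4p1, Cyp4p2, Cyp4p3 and Cyp6a9 were below the low-count filter in this comparison.

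Cyp6a17 was 4.42-fold lower in X7/C24_1 to 3 (4.12 to 6.00 CPM) than in C24 (17.9 to 23.7 CPM), or -2.14 on the log2 scale (edgeR, SE 0.190, adjusted p = 0.000628). Cyp28d2 was 2.45-fold lower (2.33 to 2.62 CPM against 5.05 to 6.78 CPM, log2 fold change -1.28, SE 0.176, edgeR adjusted p = 0.00415). For both genes X7/C24_4 also lay below every C24 library, at 8.23 and 2.45 CPM, and these 2 were the members called when that library was included, beside 33 of 9520 genes. Cyp4g15 was lower, at -0.45 on the log2 scale (SE 0.124, edgeR adjusted p = 0.0496), close to the threshold, with X7/C24_4 inside the C24 range.

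Cyp18a1 (log2 fold change 3.80, SE 0.463, edgeR adjusted p = 0.00232), Cyp4ac1 (2.65, SE 0.424, adjusted p = 0.00777) and Cyp6g2 (2.57, SE 0.319, adjusted p = 0.00256) were the members furthest above C24. The first pair passed the low-count filter only through X7/C24. Cyp4e2 and Cyp4g1 were higher by 1.47 (SE 0.230, edgeR adjusted p = 0.00708) and 1.46 (SE 0.332, edgeR adjusted p = 0.0276). Cyp6v1 was higher by 0.46 (SE 0.0985, edgeR adjusted p = 0.0224). Cyp4d14, a gene largely covered by an antisense RNA, was at 14.9, 14.1 and 19.6 CPM in C24 and 20.8, 25.4 and 25.9 CPM in X7/C24_1 to 3 (log2 fold change 0.58, SE 0.148, edgeR adjusted p = 0.0396), with X7/C24_4 at 14.1 CPM. Leaving out X7/C24_1, X7/C24_2 or X7/C24_3 left 6 members called each time, with the calls of Cyp4d14, Cyp4g1, Cyp6v1 and Cyp4g15 lost. Over all genes 522, 535 and 461 were then called, against 1280 with every library. Without C24_6 the count was 16 members (8 higher, 8 lower), beside 2707 of 9615 genes.

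**Figure D5:**
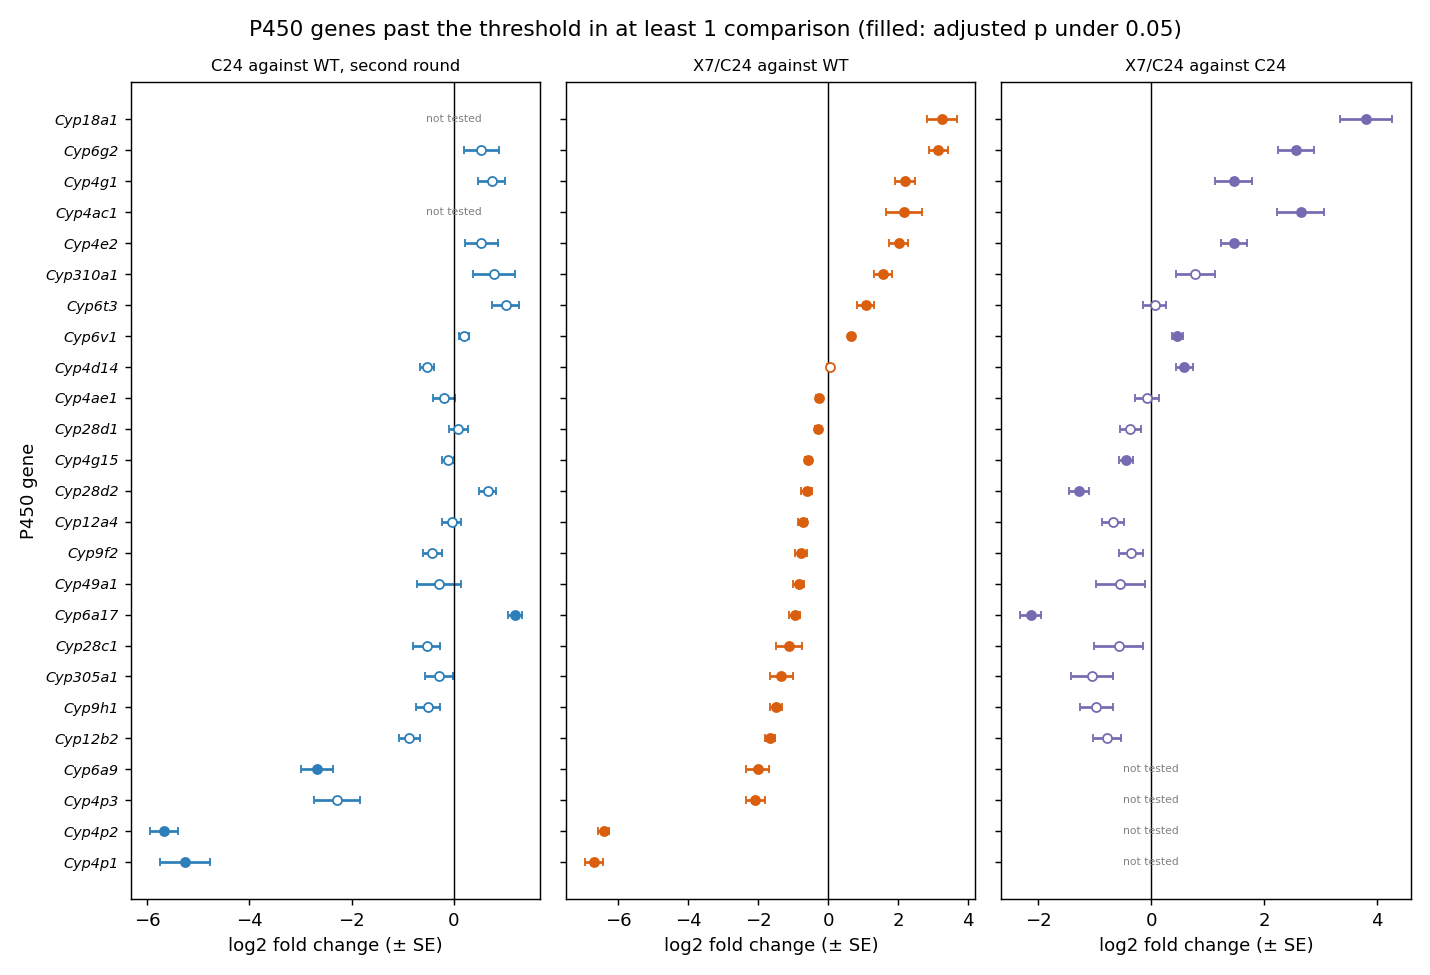
Log2 fold changes (edgeR, bars ± SE) of the 25 P450 genes past the threshold in at least 1 of the 3 comparisons, ordered by X7/C24 against WT; filled circles have an adjusted p under 0.05. The comparisons share libraries. Cyp4p1 and Cyp4p2 lie at -5.26 and -5.67 in C24 and at -6.69 and -6.42 in X7/C24 against WT, while Cyp6a17 is at 1.19 in the first panel and -0.95 in the second.

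The electron donors of the P450 enzymes were close to WT. The reductase Cpr was at 75.6, 77.3 and 81.5 CPM in WT, 68.2, 70.1 and 66.2 CPM in C24 and 70.1, 71.3 and 69.2 CPM in X7/C24_1 to 3. Of 7 redox partners tested against WT in X7/C24, 1 rose (Cyt-b5, log2 fold change 0.20, SE 0.0631, edgeR adjusted p = 0.0345) and 2 fell (Cpr, -0.14, SE 0.0478, edgeR adjusted p = 0.0455, and CG5946, -0.21, SE 0.0601, edgeR adjusted p = 0.0213). The share of redox partners called was near the 42.3% of all genes called in that comparison. For C24 against WT, Cpr differed by -0.19 (SE 0.0652, edgeR adjusted p = 0.576). The differences of these genes were small beside those of the called members.

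Known regulators of detoxification genes and other detoxifying families were counted in X7/C24 against WT, where 42.3% of all genes passed the threshold (21.2% in each direction). Of 13 regulators tested 3 rose, with the largest values for ss (log2 fold change 1.62, SE 0.231, edgeR adjusted p = 0.00114) and maf-S (1.24, SE 0.0931, edgeR adjusted p = 8.14e-05), the small Maf partner of the xenobiotic regulator cnc, and 3 fell. Of 10 delta and epsilon glutathione transferases 2 rose and 2 fell, and of 7 UDP-glycosyltransferases 4 rose and 2 fell. For the regulators and the transferases the share called was near that of all genes. In C24 against WT 2 of 6 UDP-glycosyltransferases rose, Ugt86Dd by 2.17 on the log2 scale (SE 0.295, edgeR adjusted p = 0.0352) and Ugt86Di by 0.95 (SE 0.111, edgeR adjusted p = 0.0241). Ugt86Dd was at 1.06, 1.08 and 0.586 CPM in WT_4 to 6 and at 3.15 to 4.50 CPM in every C24 library except C24_1, which held 1.72 CPM.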

How the data were processed

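Per the study's methods, the authors removed low-quality reads, aligned unstranded paired reads from poly(A)-selected libraries to BDGP5 with BWA, kept unique positions, removed duplicates with SAMTools and counted read pairs per FlyBase gene with htseq-count in union mode without strand. The deposited counts of the 17 libraries were used as given. The authors' size factors and normalized tables were not used.

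Here CPM were scaled by TMM over all 17 libraries, and RPKM are CPM per kb of BDGP6 exon, matched by FlyBase ID (79 of 80 genes). A gene was called expressed at a mean of 1 CPM. Tests were edgeR 4.0.16 (R 4.3.3) quasi-likelihood fits on all genes left by filterByExpr, with Benjamini-Hochberg adjustment over all of them and a threshold of 0.05, between the 3 libraries of each group (3 against 4 in the pilot), with no covariate. A gene passed the filter through a group when all its libraries above the cutoff were in that group. The tests were tried on simulated counts. Alternatives used DESeq2 1.42.0, limma-voom (limma 3.58.1), other scalings, filters, covariates and libraries.

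Named genes were, per comparison, up to 10 called members with the largest absolute log2 fold change, the 10 highest by RPKM in WT, neighbours of the same subfamily within 10 kb, and Cyp18a1, Cyp4g1, Cyp4g15 and Cyp6g1. Members, lists and rules were chosen with earlier results of these data known. Depth was 7883183 to 28339670 counts per library, and limits for a count of 0 cover counting error only.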

Additional observations from a re-analysis of the deposited data

Results flagged for a closer look

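For the named members, the highest or lowest library of each genotype (WT 6, C24 7, X7/C24 4 libraries, rounds pooled) was compared with the others by Dixon's test. It singled out 28 of 93 sets, where chance gives about 1 in 20. Most were pilot libraries low in neuron transcripts.

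C24_1 stood apart most often. It was far above the other C24 libraries for Cyp9f2 (326 CPM, others 32.6 to 55.3), Cyp9c1 (142 CPM, others 15.8 to 25.7), Cyp12e1 (120 CPM, others 52.2 to 79.2), Cyp6g2 (110 CPM, others 2.25 to 14.0), Cyp6u1 (49.7 CPM, others 25.5 to 33.3) and Cyp28d1 (33.5 CPM, others 13.3 to 22.0). It was also above them for Cyp4e2 (22.2 CPM, others up to 3.19), Cyp6g1 (15.9 CPM, others up to 2.24), Cyp12b2 (11.6 CPM, others up to 6.47) and Cyp4e1 (3.91 CPM, others up to 0.507). At low level the same held for Cyp6a9 (0.625 CPM, others up to 0.273) and Cyp6a8 (0.156 CPM, others at 0), and for Cyp4d2 it was below them (5.31 CPM, others 20.4 to 30.5).

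WT_2 was above the other WT libraries for Cyp6g2 (116 CPM, others 1.89 to 32.4), Cyp9c1 (113 CPM, others 20.1 to 51.1), Cyp9f2 (98.2 CPM, others 49.8 to 67.7) and Cyp6u1 (45.7 CPM, others 23.8 to 31.5). WT_1 was above them for Cyp6v1 (41.5 CPM, others 21.9 to 26.3), Cyp4ac1 (13.3 CPM, others up to 3.57) and Cyp18a1 (10.2 CPM, others up to 0.766), and below them for Cyp4g15 (63.6 CPM, others 129 to 166). WT_3 was low for Cyp4ac2 (0.0528 CPM, others 0.234 to 0.288).

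X7/C24_4 was above the other X7/C24 libraries for Cyp12e1 (80.0 CPM, others 45.6 to 51.0) and Cyp28d1 (24.6 CPM, others 12.9 to 14.6). The remaining 4 sets rest on few counts: Cyp4p1 in C24_7 (0.724 CPM, others up to 0.288) and X7/C24_2 (0.191 CPM, others up to 0.0735), Cyp4ac2 in X7/C24_2 (0.477 CPM, others up to 0.222) and Cyp6a19 in X7/C24_3 (0.0735 CPM, others at 0).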

How the results depend on the processing

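For C24 against WT, 4 members were called. The count was 1 with a minimum of 10 counts in every library (which leaves out the Cyp4p genes and Cyp6a9), 2 with the kit set as a term (Cyp6a17 and Cyp6a9 lost), 0 over 13 libraries with a round term (edgeR, 4 members at an unadjusted p under 0.05) and 1 to 3 when 1 library was left out. DESeq2 called 6 members and the fit of 10 libraries with a round term 5. Over all genes the counts were 37 by edgeR, 112 by DESeq2, 81 in the joint fit of 9 libraries, 11 with the kit set term, 10 with the minimum of 10 counts, 72 over 10 libraries, 1 over 13 libraries and 214 in the 2 against 2 fit without WT_5 and C24_6, which called 4 members. The range was 5 to 27 when 1 library was left out. Cyp4p2 lost its call only over the 13 libraries (edgeR adjusted p = 0.339), which include WT_1, WT_2 and C24_1. For the pilot the count was 1 without WT_1, WT_2 and C24_1 (2 of 9700 genes, with WT_3 alone assumed to vary like the 3 C24 libraries), and 0 whichever single library was left out.

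For X7/C24 against WT the 24 members became 7 with X7/C24_4 included (4087 and 761 genes) and 22 to 27 when 1 library was left out (2846 to 4792 genes). For X7/C24 against C24 the 10 members became 2 with X7/C24_4 included (1280 and 33 genes) and 6 to 16 when 1 library was left out (461 to 2707 genes). The cause of these changes was not tested. The number of genes expressed in WT, 44, was 54 at a mean of 0.5 CPM, 36 when every library had to reach 1 CPM and 40 to 48 when 1 library was left out. Of the log2 fold changes of called members under all alternatives, 21 of 68 lost their call for C24 against WT and 33 of 353 for X7/C24 against WT, as did 33 of 148 for X7/C24 against C24. None changed direction.

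With the replicate number as a block, C24 against WT called 2 members (Cyp4p1 and Cyp4p2), and Cyp6a17 and Cyp6a9 had edgeR adjusted p-values of 0.264 and 0.169. WT_4 and C24_7 had no partner of the same number, so only WT_5, WT_6, C24_5 and C24_6 informed that comparison. The lost calls therefore cannot be told apart from the use of fewer libraries. The pilot with that block called 0 (edgeR, with 0 at an unadjusted p under 0.05). Deviations of same-numbered libraries correlated at -0.15 and -0.22 in the second round and at -0.08, -0.84 and 0.75 in the pilot, so the numbers were not taken as pairs. No paired analysis was possible because X7/C24_1 to 3 share no replicate number with WT_4 to 6 or C24_5 to 7. At the lowest depth 3 counts were 0.469 CPM, and differences among genes near that level were not detectable.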
